A study of Mus musculus with 16 samples.

Results

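The 33 genes described here are made by the blood cells of the marrow: 14 by maturing neutrophils, 9 by red cell precursors and 10 by developing B cells. They were chosen by lineage, each has exactly 1 probeset with a single gene symbol on the array, and they are 33 of the 19937 genes that could be named in this way. They were followed across the 4 groups of a mouse study of the miR-183 cluster, in which 16 Affymetrix MoGene 1.0 arrays each held total RNA of a sample, kept in RNAlater and purified on RNeasy columns. The microdissected organ of Corti (OC), the sensory strip of the cochlea, was taken at postnatal day 5 (P5) from 5 Tg1MDW/1MDW and 5 wild-type (WT) samples. The cochlea without the vestibular labyrinth was taken at P18 from 3 Tg1MDW/1MDW and 3 WT samples. Tg1MDW/1MDW mice are homozygous for Tg(GFAP-Mir183,Mir96,Mir182)1MDW, a transgene that drives the 3 microRNAs from a human *GFAP* core promoter in 1 founder line, and both genotypes are on the FVB/NCrl strain, with WT littermates as controls. Whether an array holds 1 animal or a pool is not stated, so p-values measure the spread between these samples, which may be technical.

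Groups follow the sample titles, with ages of 5 and 18 days. The separate age, tissue and genotype fields of the labels disagree with the titles, and their ages read 5.5 and 18.5 days. The transgene followed the titles: mean log2 signals of *Mir96* were 8.29 and 7.83 in Tg1MDW/1MDW at P5 and P18 and 4.89 and 4.47 in WT. The hair cell gene *Pou4f3* had a mean log2 signal of 7.88 in WT at P5 and 6.98 at P18, and *Otof* had 8.46 and 7.28. Array medians lay between 6.33 and 6.63. Precision is limited by how few arrays there are, and each P18 minus P5 difference is one of age and of dissection together, which cannot be told apart. The labels give no sexes. Averaged over *Kdm5d*, *Uty* and *Eif2s3y*, genes of the Y chromosome, the log2 signal was above 8 on 4 of 5 WT and 1 of 5 Tg1MDW/1MDW arrays at P5 and below 5 on the others, so that Y-linked signal was uneven between the genotypes there. On the P18 arrays it was 7.22 to 7.34 in WT and 7.65 to 7.66 in Tg1MDW/1MDW, so that every P18 array lay between the high and the low P5 levels. Whether the P18 arrays hold pooled RNA of both sexes was not tested.

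Blood cells of 3 kinds make up most of growing marrow. Neutrophils are white cells that kill microbes with stored granules, and their precursors fill primary granules first and secondary granules later, each with its own proteins. Red cell precursors take up erythropoietin signals, make heme and build a flexible membrane under the control of *Gata1*, *Tal1* and *Klf1*. Developing B cells rearrange their antibody genes and carry a trial receptor with a surrogate light chain. The temporal bone encloses the cochlea, and bone of young mice holds marrow. In bulk RNA, fewer cells of a type and less RNA per cell cannot be told apart.

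Short stretches of the proximal promoters are printed for the genes with the largest changes, where they hold a motif of a blood cell regulator, and for every red cell gene with the GATA motif. RefSeq promoters on GRCm38.p6, each running from 250 bases before to 50 bases after a transcript start, were available for 30 of the 33 genes, as 32 promoters because *Tal1* and *Ebf1* have 2 each. *Slc4a1*, *Cd79b* and *Cebpe* were not matched. Motifs were searched as letters on both strands, and matches of different motifs may overlap. A GATA motif (AGATAA or TGATAA) occurred in 7 of 9 red cell promoters (77.8%), in 2 of 13 neutrophil promoters and in 0 of 10 B lineage promoters, against 18.6% of 32851 promoters. A C/EBP motif (TTGCNNAA) occurred in 6 of 13 neutrophil promoters (46.2%), 1 of 9 red cell promoters and 0 of 10 B lineage promoters, against 10.8% of all. The PU.1 motif (GAGGAA) occurred in 9 of 13 neutrophil, 5 of 9 red cell and 5 of 10 B lineage promoters, against 28.3% of all. A CACCC box (CCACACCC or CCCCACCC) was found in 4 neutrophil, 3 red cell and 0 B lineage promoters, against 13% of all, and an EBF motif (CCCNNGGG, which reads alike on both strands) in 3, 2 and 1, against 13.7% of all. These are matches of letters, not sites shown to be bound.

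In the neutrophil promoters below, capitals mark the C/EBP motif in *Ngp* and *Lcn2* and the PU.1 motif in *S100a8*. The second *Ngp* match, which reads TTGGGCAA, and the *S100a8* match lie on the opposite strand. Not printed are a PU.1 motif of *Lcn2*, 20 bases before the start, and another of *S100a8*, 170 bases before it. All sequences run 5′ to 3′ along the strand of the gene.
Ngp (chr9:110419662-110419685, plus strand, motif starting 138 bases before the transcript start): ctggtttaTTGCCCAAacctcctt
Ngp (chr9:110419789-110419812, plus strand, 11 bases before the start): ggcagttcTTGGGCAAggcagtct
Lcn2 (chr2:32387940-32387963, minus strand, 216 bases before the start): ccttcctgTTGCTCAAccttgcac
S100a8 (chr3:90669026-90669049, plus strand, 36 bases before the start): ggccaagctTTCCTCtataaaagc

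In the red cell promoters capitals mark the GATA motif, which lies on the opposite strand in each of the 7 and so reads TTATCT or TTATCA. Only the GATA motif is printed for this list. *Rhag* and *Epb42* also held a PU.1 motif, 160 and 51 bases before the start.
Rhag (chr17:40811109-40811132, plus strand, 31 bases before the start): cctctgctcTTATCAacactatac
Epb42 (chr2:121037089-121037112, minus strand, 226 bases before the start): tctatttccTTATCTcgttcaaac
Ermap (chr4:119190048-119190071, minus strand, 67 bases before the start): acgctcgctTTATCAggggtgggc
Klf1 (chr8:84901893-84901916, plus strand, 80 bases before the start): gcctgggtcTTATCAgggaagaca
Alas2 (chrX:150547322-150547345, plus strand, 86 bases before the start): ctttgctttTTATCTttagcagag
Epor (chr9:21963616-21963639, minus strand, 54 bases before the start): ggctgtagcTTATCTgtccccagc
Tal1 (chr4:115056212-115056235, plus strand, 205 bases before the start): tagagtcttTTATCTttgagcaat

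Of the B lineage genes with the largest changes, *Vpreb3* had none of these motifs in its window. *Cd79a* had the PU.1 motif in capitals, on the opposite strand.
Cd79a (chr7:24897348-24897371, plus strand, 140 bases before the start): gcagggcagTTCCTCtccactcag

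The first question was how these genes differed between the P5-OC and the P18-cochlea. In WT 31 of the 33 genes rose, 1 fell and 1 did not pass the test (limma over all 34760 probesets, adjusted p under 0.05). Among all probesets 19.8% rose and 30.2% fell. In Tg1MDW/1MDW 31 rose and 2 fell, where 21.1% of all probesets rose and 33.0% fell. All 14 neutrophil genes, all 9 red cell genes and 8 of 10 B lineage genes rose in both genotypes. The median log2 change of the 33 genes was 3.87 in WT and 3.63 in Tg1MDW/1MDW, beside medians of -0.06 and -0.11 over all probesets. By list it was 4.77 and 4.35 for neutrophil genes, 3.96 and 3.75 for red cell genes and 1.74 and 1.56 for B lineage genes. Rises of at least 2-fold at an adjusted p under 0.05 were found for 30 genes in WT and 29 in Tg1MDW/1MDW, against 5.50% and 5.93% of all probesets. For 31 genes every P18 array read above every P5 array of the same genotype, in WT and in Tg1MDW/1MDW, as was so for 19.7% and 21.2% of all probesets.

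**Figure D1:**
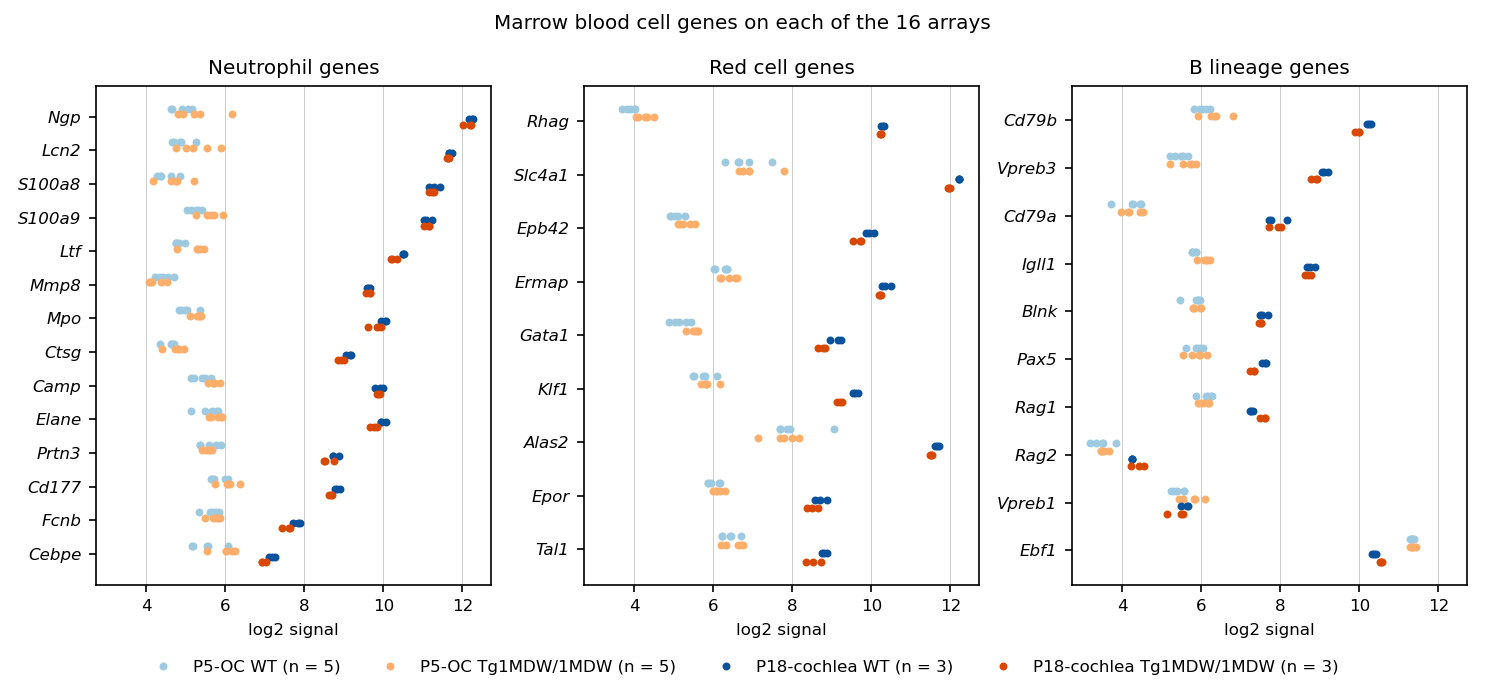
Log2 signal (x axis) of each of the 33 genes on the 16 arrays, 1 point per array, with genes ordered in each panel by their P18 minus P5 change in WT. P18 points lie right of all P5 points for every neutrophil and red cell gene, whereas *Vpreb1* overlaps and *Ebf1* lies to the left.

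At P5 most of these genes read dimly, with 30 of the 33 group means below the median of the arrays in each genotype. At P18 only 2 of the 33 were below it. Since dim probesets on such arrays read close to background, a change measured from a dim P5 level can be smaller than the true one. The median SD of the 33 genes was 0.20 log2 units within either P5 group and 0.07 within either P18 group.

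Neutrophil genes carried the largest changes. *Ngp*, which encodes a protein of secondary granules, had the largest P18 minus P5 rise of all 34760 probesets in WT. Its log2 signals were 4.66, 5.05, 4.91, 5.15 and 4.63 in WT at P5, 5.35, 6.16, 5.21, 4.94 and 4.81 in Tg1MDW/1MDW at P5, 12.16, 12.24 and 12.27 in WT at P18, and 12.22, 12.19 and 12.02 in Tg1MDW/1MDW at P18. The 2 ages were thus far apart on every array, and the second Tg1MDW/1MDW array was the brightest at P5. The rise was 7.35 ± 0.23 (standard error) on the log2 scale in WT, or 163-fold as measured, and 6.85 ± 0.23 in Tg1MDW/1MDW.

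*Lcn2* encodes lipocalin-2, which binds bacterial siderophores and so withholds iron. It read 5.27, 4.69, 4.66, 4.86 and 4.87 in WT and 5.54, 5.89, 5.01, 4.74 and 5.19 in Tg1MDW/1MDW at P5, against 11.74, 11.67 and 11.65 in WT and 11.62, 11.64 and 11.67 in Tg1MDW/1MDW at P18. The P18 arrays of both genotypes overlapped in a narrow range far above the P5 arrays, and the rise was 6.82 ± 0.20 in WT and 6.37 ± 0.20 in Tg1MDW/1MDW. *S100a8*, a subunit of calprotectin, the calcium- and zinc-binding protein of the neutrophil cytosol, read 4.63, 4.27, 4.85, 4.35 and 4.38 in WT and 4.77, 5.20, 4.17, 4.61 and 4.76 in Tg1MDW/1MDW at P5. At P18 it read 11.29, 11.16 and 11.44 in WT and 11.22, 11.29 and 11.15 in Tg1MDW/1MDW. No P5 array came near these, and the rise was 6.80 ± 0.18 in WT and 6.52 ± 0.18 in Tg1MDW/1MDW. Its partner *S100a9* rose by 5.89 and 5.50.

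Other secondary granule and late-stage proteins followed: lactoferrin (*Ltf*) rose by 5.68 in WT and 5.01 in Tg1MDW/1MDW, the collagenase *Mmp8* by 5.17 and 5.40, and the cathelicidin *Camp* by 4.52 and 4.16. *Cd177*, a neutrophil surface protein, rose by 3.02 and 2.61. The 4 primary granule enzymes, which are made earlier, also rose. Myeloperoxidase (*Mpo*) rose by 5.0 and 4.51, cathepsin G (*Ctsg*) by 4.53 and 4.18, neutrophil elastase (*Elane*) by 4.40 and 4.0, and proteinase 3 (*Prtn3*) by 3.19 and 3.03.

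The smallest changes of the neutrophil list belonged to *Cebpe*, the transcription factor that turns on secondary granule genes, and to *Fcnb*, which encodes the lectin ficolin B. *Cebpe* read 6.06, 5.16, 5.19, 5.54 and 5.56 in WT and 6.24, 6.03, 5.54, 6.02 and 6.18 in Tg1MDW/1MDW at P5, and 7.25, 7.18 and 7.10 in WT and 7.04, 6.92 and 6.92 in Tg1MDW/1MDW at P18. The ages did not overlap, but the P5 WT arrays spread over almost a whole log2 unit, and the rise was 1.67 ± 0.18 in WT and 0.96 ± 0.18 in Tg1MDW/1MDW (adjusted p = 0.000332). *Fcnb* read between 5.33 and 5.84 in WT and between 5.50 and 5.86 in Tg1MDW/1MDW at P5, and 7.71, 7.84 and 7.90 in WT and 7.44, 7.61 and 7.63 in Tg1MDW/1MDW at P18. It rose by 2.17 ± 0.11 and 1.84 ± 0.11.

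Among the red cell genes, those of the membrane had the largest measured changes. *Rhag*, the Rh-associated glycoprotein, read 3.99, 3.69, 3.88, 4.01 and 3.82 in WT and 4.05, 4.49, 4.10, 4.31 and 4.28 in Tg1MDW/1MDW at P5. At P18 it read 10.25, 10.32 and 10.29 in WT and 10.26, 10.22 and 10.24 in Tg1MDW/1MDW, so that the genotypes overlapped and both stood apart from P5. The measured rise was 6.41 ± 0.10 in WT and 5.99 ± 0.10 in Tg1MDW/1MDW, from P5 signals below the lowest lower quartile of any array (4.54), so that its true size may be larger. *Slc4a1*, the anion exchanger band 3, read 6.90, 7.48, 6.30, 6.64 and 6.62 in WT and 6.66, 7.78, 6.89, 6.75 and 6.90 in Tg1MDW/1MDW at P5. The second array of each genotype was the brightest at P5. At P18 it read 12.22, 12.23 and 12.22 in WT and 11.94, 11.97 and 12.00 in Tg1MDW/1MDW, and the rise was 5.43 ± 0.24 and 4.97 ± 0.24.

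*Epb42*, the membrane skeleton protein 4.2, read 5.27, 5.04, 4.92, 5.09 and 4.92 in WT and 5.41, 5.54, 5.10, 5.15 and 5.24 in Tg1MDW/1MDW at P5, and 9.93, 10.06 and 9.88 in WT and 9.53, 9.74 and 9.73 in Tg1MDW/1MDW at P18. The 3 WT arrays lay above the 3 Tg1MDW/1MDW arrays at P18, and the rise was 4.91 ± 0.11 in WT and 4.38 ± 0.11 in Tg1MDW/1MDW. *Ermap*, a surface protein of red cell precursors, rose by 4.16 and 3.83. *Alas2*, the enzyme of the first and limiting step of heme synthesis in red cells, rose by 3.62 ± 0.26 and 3.75 ± 0.26. Its P5 arrays were widely spread, from 7.68 to 9.05 in WT and from 7.14 to 8.17 in Tg1MDW/1MDW.

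The regulators and the receptor of the red cell lineage rose as well. *Gata1* rose by 3.96 in WT and 3.24 in Tg1MDW/1MDW, and *Klf1* by 3.87 and 3.33. *Epor*, the erythropoietin receptor, read 6.13, 5.95, 5.87, 6.18 and 5.88 in WT and 6.09, 6.16, 5.98, 6.07 and 6.29 in Tg1MDW/1MDW at P5, and 8.56, 8.87 and 8.70 in WT and 8.37, 8.50 and 8.65 in Tg1MDW/1MDW at P18. It rose by 2.71 ± 0.10 and 2.39 ± 0.10. *Tal1*, a transcription factor that blood vessel cells also use, read between 6.22 and 6.70 in WT and between 6.20 and 6.75 in Tg1MDW/1MDW at P5, and 8.87, 8.75 and 8.79 in WT and 8.72, 8.35 and 8.52 in Tg1MDW/1MDW at P18. It had the smallest rise of the 9, at 2.40 ± 0.14 and 2.01 ± 0.14, yet no P5 array reached the lowest P18 array.

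The B lineage list was the least uniform. *Cd79b* and *Cd79a* encode the paired signalling chains of the B cell receptor. *Cd79b* read 6.11, 6.22, 5.82, 5.97 and 6.03 in WT and 6.38, 6.31, 5.93, 6.81 and 6.26 in Tg1MDW/1MDW at P5, and 10.30, 10.24 and 10.20 in WT and 9.89, 10.00 and 10.00 in Tg1MDW/1MDW at P18. It rose by 4.21 ± 0.14 in WT and 3.63 ± 0.14 in Tg1MDW/1MDW. *Cd79a* rose by 3.64 ± 0.17 in both, from P5 values between 3.71 and 4.49 in WT and between 3.96 and 4.53 in Tg1MDW/1MDW to 8.16, 7.70 and 7.76 in WT and 8.01, 7.95 and 7.72 in Tg1MDW/1MDW.

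Measured changes of the surrogate light chain genes diverged. *Vpreb3*, an endoplasmic reticulum protein of B cell precursors that resembles the surrogate light chain, read 5.67, 5.53, 5.34, 5.48 and 5.20 in WT and 5.73, 5.76, 5.22, 5.87 and 5.53 in Tg1MDW/1MDW at P5. At P18 it read 9.05, 9.11 and 9.22 in WT and 8.78, 8.90 and 8.94 in Tg1MDW/1MDW, a rise of 3.68 ± 0.13 and 3.25 ± 0.13. *Igll1*, the lambda5 part of the surrogate light chain, rose by 2.96 and 2.62. *Vpreb1*, its partner in that chain, did not: it read 5.57, 5.56, 5.40, 5.32 and 5.24 in WT and 5.85, 5.55, 5.45, 5.81 and 6.08 in Tg1MDW/1MDW at P5, and 5.48, 5.68 and 5.63 in WT and 5.13, 5.53 and 5.49 in Tg1MDW/1MDW at P18. The ages overlapped in both genotypes. Group means of *Vpreb1* at P5 and P18 were 5.42 and 5.59 in WT and 5.75 and 5.38 in Tg1MDW/1MDW. All were below the lowest array median (6.33), so a rise of this dim probeset may have gone undetected. The log2 change of *Vpreb1* was 0.18 ± 0.14 in WT (adjusted p = 0.312) and -0.37 ± 0.14 in Tg1MDW/1MDW (adjusted p = 0.0343), and the test of the difference between these gave -0.54 ± 0.19 (adjusted p = 0.241). The Tg1MDW/1MDW call of *Vpreb1* was lost under 10 of 28 alternatives, among them without replicates 1, 4 or 5 of Tg1MDW/1MDW at P5 and without replicate 1 at P18, which gave -0.34, -0.35, -0.28 and -0.24. Quantile normalization and a shift of all arrays to 1 median moved the median change of all probesets from -0.06 to 0.09 and 0.13 in WT, and there *Vpreb1* was called higher in WT, at 0.45 and 0.37, and not called in Tg1MDW/1MDW, at -0.01 and -0.14. The close relative *Vpreb2* of the further B lineage genes was not called either, at 0.14 in WT and -0.34 in Tg1MDW/1MDW, and signals of near-identical copies may not be told apart on an array.

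Of the other B lineage genes, *Blnk*, an adaptor below the B cell receptor, rose by 1.76 in WT and 1.61 in Tg1MDW/1MDW, and *Pax5*, the transcription factor that holds the B cell identity, by 1.72 and 1.43. *Rag1* and *Rag2*, which together cut DNA for antibody gene rearrangement, rose by 1.14 and 1.51 and by 0.77 and 0.87. *Rag2* read 3.34, 3.18, 3.51, 3.85 and 3.48 in WT and 3.66, 3.50, 3.47, 3.53 and 3.46 in Tg1MDW/1MDW at P5, and 4.24, 4.25 and 4.25 in WT and 4.55, 4.42 and 4.21 in Tg1MDW/1MDW at P18. All its values were below 4.54, the lowest lower quartile of any array, apart from the first Tg1MDW/1MDW array at P18. *Ebf1*, an early B cell factor that connective tissue cells also express, was the only gene of the 33 to fall in both genotypes, and is named because it stood alone. It read 11.32, 11.38, 11.28, 11.33 and 11.35 in WT and 11.33, 11.43, 11.33, 11.37 and 11.30 in Tg1MDW/1MDW at P5, and 10.38, 10.42 and 10.33 in WT and 10.54, 10.56 and 10.58 in Tg1MDW/1MDW at P18. It fell by 0.96 ± 0.06 and by 0.79 ± 0.06.

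**Figure D2:**
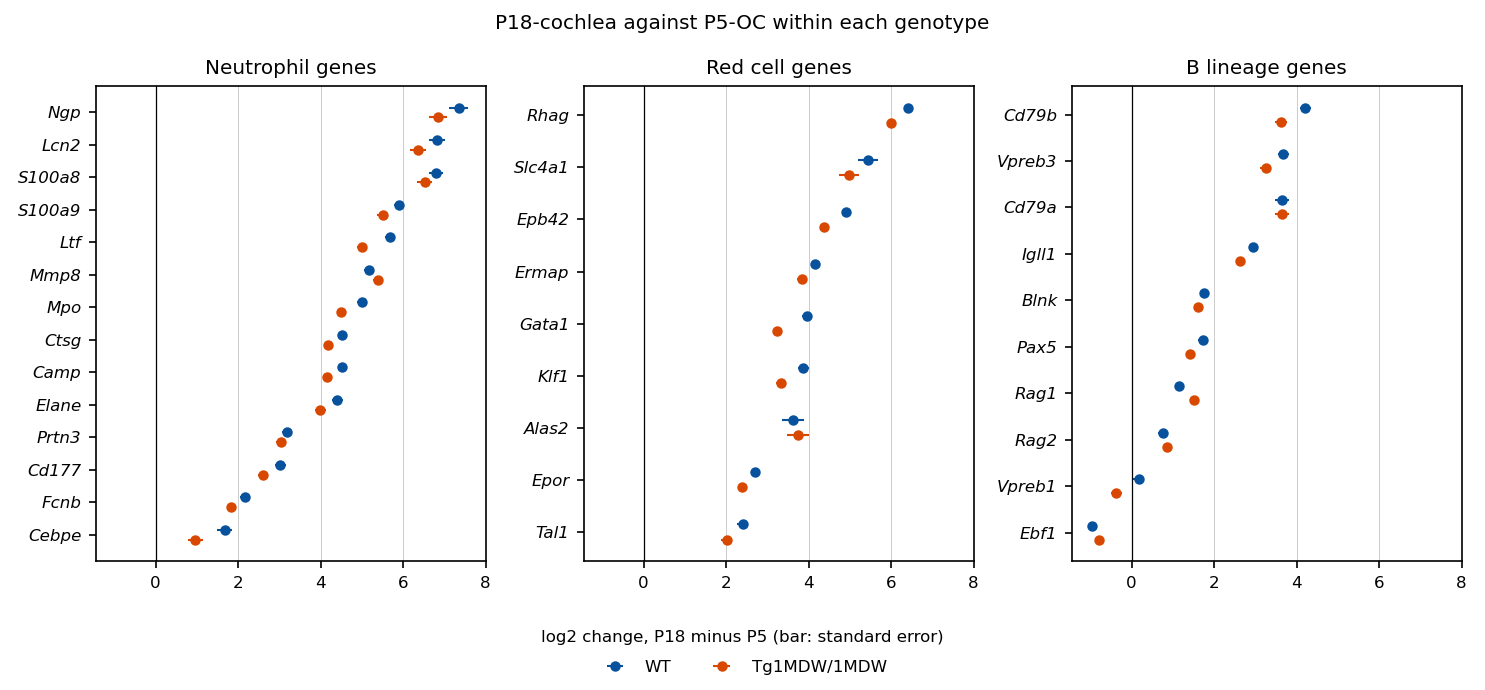
P18-cochlea minus P5-OC log2 change (x axis) of each gene in WT and in Tg1MDW/1MDW, with bars for the standard error of the fit. The points of both genotypes run together from 7.35 for *Ngp* in WT down to -0.96 for *Ebf1* in WT.

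Further genes of the same lineages, listed apart from the 33, were read next. Of 27 further neutrophil genes 26 rose in WT and 24 in Tg1MDW/1MDW, with medians of 2.51 and 2.30. The 2 with the smallest adjusted p were *Retnlg*, a resistin-like protein, at 5.73 and 5.56, and the chemokine receptor gene *Cxcr2*, at 4.52 and 4.70, whereas *Cxcr1* had 0.10 (adjusted p = 0.56) and -0.29 (adjusted p = 0.0765). Of 29 further red cell genes 27 rose in WT and 26 in Tg1MDW/1MDW, with the blood group genes *Kel* (4.99 and 4.69) and *Rhd* (5.91 and 5.43) at the smallest adjusted p. Of the embryonic globin genes, *Hbb-y* (-0.06 and -0.10) and *Hba-x* (0.10 and -0.18) were not called in either genotype, and *Hbb-bh1* rose by 0.43 in WT (adjusted p = 0.00361) and had 0.18 in Tg1MDW/1MDW (adjusted p = 0.163). Of 26 further B lineage genes 22 rose and 1 fell in both genotypes. *Ikzf1*, a lymphoid transcription factor, rose by 3.56 and 3.13 and *Btk*, a kinase of the B cell receptor pathway, by 2.84 and 2.72, while *Lef1*, which many other tissues express, fell by 1.70 and by 1.6.

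Other marrow cells moved alike in part. All 11 megakaryocyte and platelet genes rose in both genotypes, led by *Rgs18* (4.74 and 4.95) and *Ppbp*, a platelet chemokine (7.19 and 7.03). Of 17 eosinophil, basophil and mast cell genes 12 rose in WT and 9 in Tg1MDW/1MDW, with *Ear6*, an eosinophil ribonuclease, at 4.27 and 3.89 and *Prg2*, the major basic protein of eosinophils, at 4.93 and 4.26. In that list *Gata2* fell by 1.61 and by 1.36. Of 17 macrophage and monocyte genes 13 rose in each genotype, with *Tyrobp* at 3.13 and 2.99 and *Mpeg1* at 2.33 and 2.51, and *Lyve1* had -0.06 and -0.20 (adjusted p = 0.744 and 0.243). Of 16 blood progenitor genes 9 rose and 2 fell in each genotype. *Irf8* rose by 2.38 and 2.10 and *Spi1*, which encodes PU.1, by 3.02 and 2.70, while *Hlf* fell by 0.46 and by 0.30. Of 15 T and NK cell genes 6 rose in each genotype, with *Nkg7* at 3.50 and 3.07 and *Il2rb* at 1.40 and 1.24. *Cd8a* had -0.19 in WT (adjusted p = 0.0995) and fell by 0.30 in Tg1MDW/1MDW. The medians of the T and NK cell list were 0.27 and 0.05.

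Genes of bone and of the organ of Corti are given beside these because the dissections differ. Of 10 osteoblast and bone matrix genes 9 rose in each genotype, with medians of 2.18 and 2.27, led by the osteocyte genes *Mepe* (3.32 and 3.32) and *Sost* (2.98 and 2.92). Of 12 osteoclast genes 11 rose in WT and 8 in Tg1MDW/1MDW. Of 14 blood vessel endothelial genes 8 rose and 3 fell in each genotype, with medians of 0.29 and 0.35. Of 15 hair cell and organ of Corti genes 12 fell in each and none rose, with the tectorial membrane gene *Tectb* falling by 5.05 and by 5.16. The part of the tissue taken in the change of the 33 genes was not tested, since it changes with age in every sample.

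**Figure D3:**
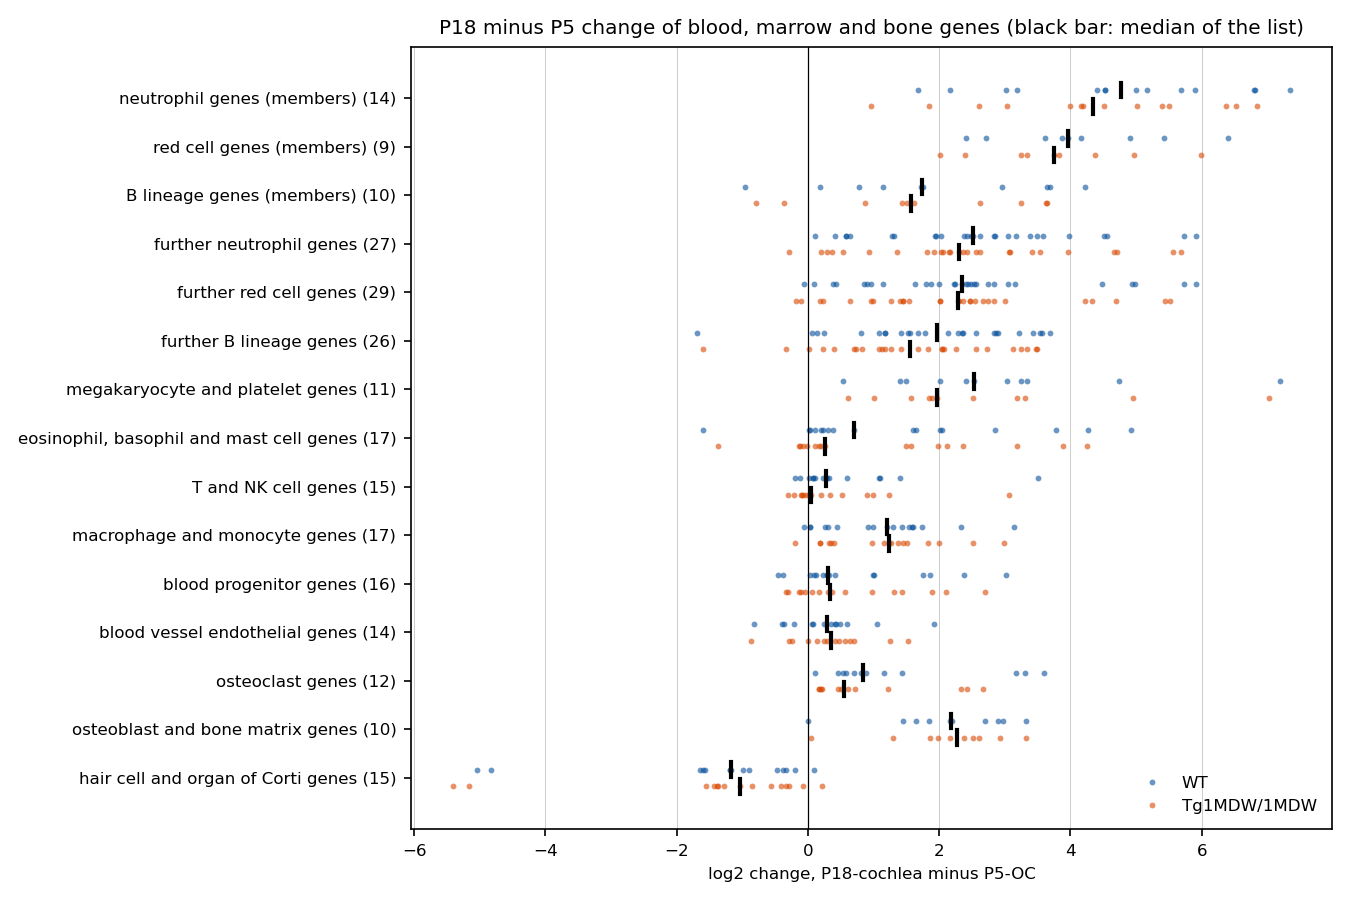
P18-cochlea minus P5-OC log2 change (x axis) of every gene in 15 lists, 1 point per gene and genotype, with the number of genes measured in parentheses and a black bar at each list's median. The 3 member lists have medians between 1.56 and 4.77, and the hair cell and organ of Corti list has medians of -1.17 and -1.04.

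The second question was whether the genotypes differed at P5, in the microdissected OC. None of the 33 genes was called by limma, where 0.0604% of all probesets were higher and 0.549% lower in Tg1MDW/1MDW. At an unadjusted p under 0.05, 13 of the 33 read higher and 0 lower, against 7.31% and 9.09% of all probesets. The log2 differences, Tg1MDW/1MDW minus WT, were above 0 for 28 genes and below 0 for 5, with a median of 0.18 beside -0.01 over all probesets, of which 53.3% were below 0. By list the medians were 0.26 for neutrophil, 0.18 for red cell and 0.05 for B lineage genes. The further genes of these lineages had medians of 0.08 over 27 neutrophil, -0.01 over 29 red cell and 0.13 over 26 B lineage genes, with 14 of the 29 red cell genes above 0 and 15 below. Other lists leaned too. Differences were above 0 for 13 of 18 skeletal muscle and 10 of 15 T and NK cell genes, with medians of 0.08 each. The same held for 13 of 17 eosinophil, basophil and mast cell genes, with a median of 0.09. Above 0 were only 6 of 17 macrophage and monocyte and 2 of 14 blood vessel endothelial genes, with medians of -0.12 and -0.14. At P5, 30 of the 33 group means lay below the array median in each genotype. Lower quartiles of the P5 arrays were 4.84 to 4.95 in WT and 4.82 to 5.05 in Tg1MDW/1MDW. Whether the leans of these lists follow signal level was not tested. In 2 genes, *Rhag* and *Igll1*, all 5 Tg1MDW/1MDW arrays read above all 5 WT arrays, as for 0.383% of all probesets.

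The genes with the lowest adjusted p at P5 were looked up after their values were seen. *Rhag*, with the array values given above, differed by 0.37 ± 0.09 (adjusted p = 0.0709). *Ltf* read 4.99, 4.75, 4.84, 4.76 and 4.77 in WT and 5.29, 5.46, 4.79, 5.30 and 5.37 in Tg1MDW/1MDW, a difference of 0.42 ± 0.10 (adjusted p = 0.088). Its Tg1MDW/1MDW replicate 3 lay among the WT arrays. *Igll1* read 5.87, 5.77, 5.76, 5.87 and 5.79 in WT and 6.08, 6.21, 6.11, 6.14 and 5.89 in Tg1MDW/1MDW, a difference of 0.27 ± 0.07 (adjusted p = 0.0964). The largest difference was that of *Cebpe*, at 0.50 ± 0.16 (adjusted p = 0.182), and the lowest that of *Alas2*, at -0.29 ± 0.23.

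The count at P5 turned on single arrays. Without replicate 3 of Tg1MDW/1MDW 9 of the 33 genes were called higher, without replicate 1 of WT 6 were, and without replicates 1 or 5 of Tg1MDW/1MDW 1 was in each case. The share of all probesets called under these alternatives is not given here. A change particular to the 33 genes can therefore not be read from these counts. *Ltf* had an adjusted p between 0.000663 and 0.633 over 29 alternatives. The second Tg1MDW/1MDW array was the brightest of the P5 arrays for 14 of the 33 genes, and leaving out both P5 arrays numbered 2 left no gene called. When the signal of the Y-linked genes entered the fit as a covariate no gene was called, as in the main fit. The differences were then 0.25 ± 0.10 for *Rhag* (adjusted p = 0.695), 0.38 ± 0.13 for *Ltf* and 0.25 ± 0.09 for *Igll1*. Y-linked signal was above 8 on 4 of 5 WT and 1 of 5 Tg1MDW/1MDW arrays at P5. The covariate thus overlaps with genotype, and this fit cannot tell the 2 apart. Bone matrix genes had mean log2 signals from 8.76 to 9.08 on replicates 1 and 2 of both genotypes and from 7.81 to 8.12 on replicates 3 to 5, a split that runs across genotypes. Neutrophil genes lay between 5.0 and 5.58 on all P5 arrays, red cell genes between 5.81 and 6.28 and B lineage genes between 5.84 and 6.17. No gene was called without replicates 1 and 2, nor without replicates 3 to 5. Among the 27 further neutrophil, 29 further red cell and 26 further B lineage genes only *Gypc*, a red cell membrane protein also made elsewhere, was called at P5, with a difference of -0.72 (adjusted p = 0.00317).

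**Figure D4:**
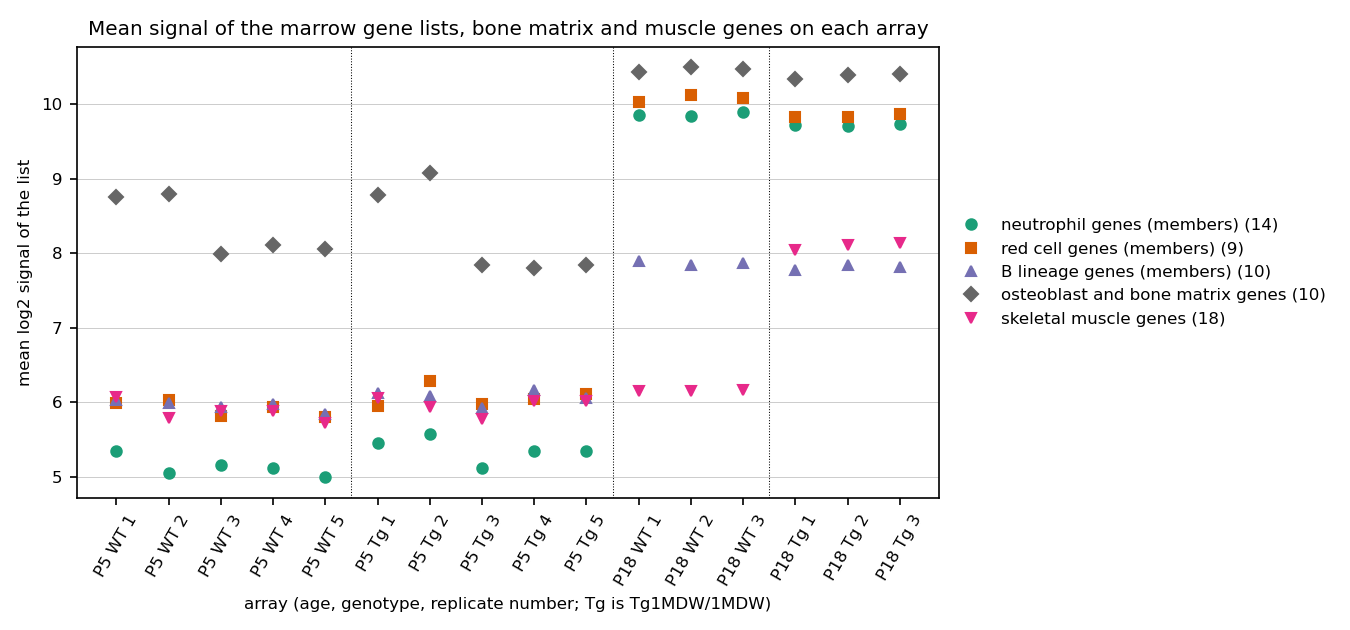
Mean log2 signal (y axis) of the 3 member lists, of bone matrix genes and of skeletal muscle genes on each array, with the number of genes in parentheses. The member lists separate the ages on every array, bone matrix genes also split the P5 arrays 1 and 2 from 3 to 5, and muscle genes are high on the 3 Tg1MDW/1MDW arrays at P18.

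The third question was the genotype at P18. Again none of the 33 genes was called, where 0.383% of all probesets were higher and 0.0604% lower in Tg1MDW/1MDW. At an unadjusted p under 0.05, 2 read higher and 4 lower, against 5.35% and 3.42% of all probesets. The fit estimated the spread of each probeset over all 4 groups together. The P18 standard errors and p-values thus also carry the wider P5 spread, with a median SD of 0.20 within P5 and 0.07 within P18 groups. The differences were below 0 for 28 of the 33, with a median of -0.18 beside -0.02 over all probesets, of which 55.4% were below 0. In 16 genes all 3 Tg1MDW/1MDW arrays read below all 3 WT arrays, against 13.6% of all probesets, and in 2 all 3 read above, against 14.0%. The 16 were 7 of 9 red cell, 6 of 14 neutrophil and 3 of 10 B lineage genes. The differences of all 9 red cell genes were below 0, with a median of -0.25. The further lists had medians of -0.15 for neutrophil, -0.24 for red cell and -0.20 for B lineage genes, and none of their genes was called.

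*Klf1* had the lowest difference, at -0.40 ± 0.14 (adjusted p = 0.376), from 9.59, 9.66 and 9.55 in WT to 9.25, 9.14 and 9.21 in Tg1MDW/1MDW. *Gata1* read 8.95, 9.24 and 9.15 in WT and 8.66, 8.82 and 8.77 in Tg1MDW/1MDW, a difference of -0.37 ± 0.13 (adjusted p = 0.365). The arrays of the 2 genotypes did not overlap for either regulator. *Rag1* differed the other way, at 7.27, 7.23 and 7.32 in WT and 7.48, 7.63 and 7.62 in Tg1MDW/1MDW, a difference of 0.30 ± 0.11 (adjusted p = 0.359), and *Ebf1* had 0.18 ± 0.07 (adjusted p = 0.381). These 4 were chosen after their values were seen. Leaving out any 1 array called none of the 33 at P18, and *Klf1* was called in separate fits per age (adjusted p = 0.0483). With array weights *Klf1* and *Gata1* were called lower and *Ebf1* and *Rag1* higher. The shares of all probesets called under these fits are not given here, so a change particular to these genes cannot be read from the calls.

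Markers of other tissues moved with genotype at P18. Of 18 skeletal muscle genes 16 were higher in Tg1MDW/1MDW, with mean log2 signals of 8.05 to 8.14 against 6.15 to 6.17 in WT. Of 14 cerebellar granule neuron genes 6 were lower, with means of 6.68 to 6.69 against 7.23 to 7.24. Mean signals of the 10 bone matrix genes were 10.34 to 10.41 against 10.44 to 10.49, and those of the 12 osteoclast genes 7.91 to 7.99 against 8.15 to 8.25, with none called. Neutrophil genes had means of 9.71 to 9.74 in Tg1MDW/1MDW against 9.84 to 9.89 in WT, and red cell genes 9.82 to 9.87 against 10.03 to 10.13. B lineage genes overlapped, at 7.77 to 7.85 against 7.84 to 7.89. The part of these tissues in the differences of the 33 genes was not tested.

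**Figure D5:**
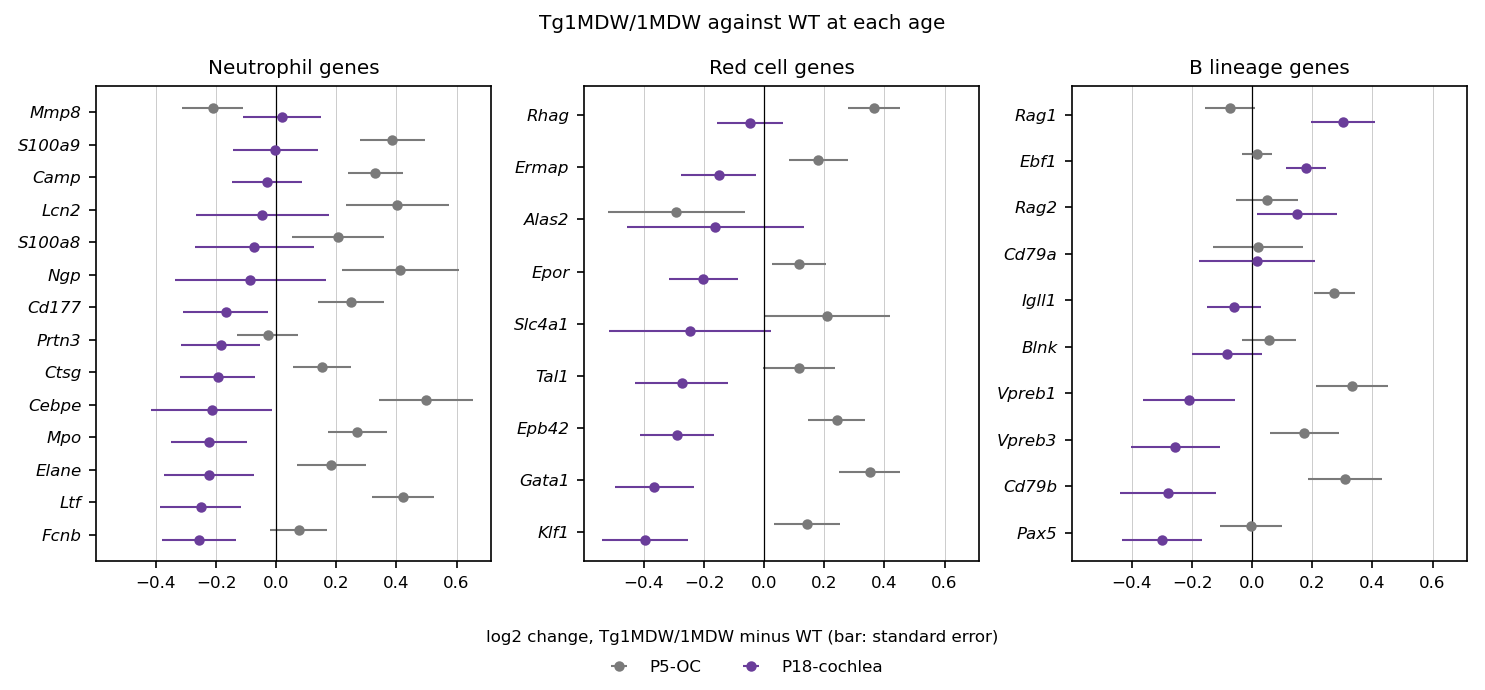
Tg1MDW/1MDW minus WT log2 difference (x axis) of each gene at P5 and at P18, with bars for the standard error of the fit. No gene passed the test at either age, and the median lies at 0.18 at P5 and at -0.18 at P18.

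The difference between the genotype effects at the 2 ages, which is also the difference between the P18 minus P5 changes of the genotypes, was tested directly. None of the 33 genes was called, where 0.541% of all probesets were higher and 0.0547% lower. At an unadjusted p under 0.05, 1 read higher and 17 lower, against 8.12% and 6.14% of all probesets. The estimate was below 0 for 28 of the 33, with a median of -0.39, beside 50.6% of all probesets and their median of -0.0038. Medians of the further neutrophil, red cell and B lineage genes were -0.17, -0.21 and -0.35. Those of T and NK cell genes and of eosinophil, basophil and mast cell genes were -0.13 and -0.18. Macrophage and monocyte, blood vessel endothelial and skeletal muscle genes had 0.03, 0.08 and 1.55. *Gata1* had -0.72 ± 0.16 (adjusted p = 0.067), *Cebpe* -0.71 ± 0.26 (adjusted p = 0.241) and *Ltf* -0.67 ± 0.17 (adjusted p = 0.0968), named after their values were seen. Without replicate 3 of Tg1MDW/1MDW at P5 *Gata1* and *Ltf* were called lower, and without replicate 1 of WT at P5 *Gata1* was. The shares of all probesets called without these arrays are not given here either. The P5 and P18 comparisons share no arrays with each other, but each enters this difference and each also enters the P18 minus P5 changes, so these values are not separate evidence.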

How the data were processed

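The authors deposited normalized log2 signals of 34760 probesets on 16 arrays, between 2.09 and 13.72 with none missing. Which background correction, probe summary and normalization made them is not given in the sources used here, which name limma. Names came from the platform table, which gives 1 gene for 21640 probesets, several for 1321 and none for 11799. Genes were read from their brightest single-symbol probeset.

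A limma 3.58.1 fit of 4 group means (R 4.3.3, no filter on dim probesets) gave the 5 contrasts, with 12 degrees of freedom left for the spread and 3.235 from the prior. Tests were two-sided, and each contrast's p-values were Benjamini-Hochberg adjusted over all probesets. Standard errors are those of the fit, in which the 4 groups share the spread of each probeset. A call was an adjusted p under 0.05. The fit was tested on simulated data.

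The 33 genes, the further lists and the motifs were chosen with earlier results of these data known. Per-array values are given for the 3 largest and the 2 smallest P18 minus P5 changes in WT of each of the 3 lists, and further lists by their 2 smallest adjusted p in WT and the largest change the other way, with exceptions named as chosen after their values were seen. Alternatives were a replicate block, separate fits, omission of the dimmest 50% of probesets, single-symbol probesets only, quantile normalization, arrays shifted to 1 median, a trended robust prior, array weights, the mean of the probesets of a gene, stricter calls and each array left out. A Y-linked covariate and the omission of numbered sets of P5 arrays were added after the data were seen. Plots were drawn with matplotlib 3.10.9 under Python 3.11.15.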

Additional observations from a re-analysis of the deposited data

Results flagged for a closer look

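In 5 of 66 tests of a gene in a P5 group, 1 array stood apart from the other 4 by Dixon's ratio, the gap to the nearest array over the range of the group (critical value 0.71). Chance flags about 1 in 20 such groups. *Alas2* read 9.05 on the second WT array and 7.68 to 7.93 on the others (ratio 0.8163). *Slc4a1* read 7.78 on the second Tg1MDW/1MDW array and 6.66 to 6.90 on the others (0.7898). *Blnk* read 5.46 on the third WT array and 5.87 to 5.97 on the others (0.809), and *Ctsg* read 4.36 on that array and 4.63 to 4.70 on the others (0.7863). *Ltf* read 4.79 on the third Tg1MDW/1MDW array and 5.29 to 5.46 on the others (0.7593). What sets these arrays apart was not tested.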

How the results depend on the processing

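Of the P18 minus P5 calls, 32 in WT and 32 in Tg1MDW/1MDW were kept under every other fit that tested the gene, with adjusted p up to 0.00135 and 0.0113, and 9 of the 33 genes were not tested without the dimmest probesets. The exception was *Vpreb1*. At an adjusted p under 0.01 the counts were 32 and 32, and with a 2-fold limit 30 and 29, which leaves out *Rag2* and *Ebf1* in both genotypes and *Cebpe* in Tg1MDW/1MDW. The genotype calls, 0 in each comparison, moved. At P5 they were 2 without the dimmest probesets, 2 with single-symbol probesets, 5 with array weights, 3 with the mean of probesets and 0 to 9 with 1 array left out. At P18 they were 1 in separate fits and 4 with array weights. For the difference between the ages they were 1 without the dimmest probesets, 2 with single-symbol probesets, 14 with array weights, 2 with the mean of probesets and 0 to 2 with 1 array left out. The shares of all probesets called under these alternatives are not given here, so a general change in calls cannot be told apart from one of the 33 genes. The cause was not tested. Replicate numbers were not taken as pairs, since not every pair of same-numbered arrays deviated together: correlations of their deviations were 0.29, 0.36 and 0.20 for numbers 1, 2 and 4 and -0.11 and -0.22 for 3 and 5 at P5, and 4e-04 to 0.07 at P18. With the replicate block the genotype calls were 0, 0 and 0 and the P18 minus P5 calls 32 and 32. Rises from dim P5 signals may be understated.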
